A study of Mus musculus and Homo sapiens with 12 samples.

Results

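Transcripts of neutrophil granule proteins were followed in sorted mouse leukaemic cells across diets that differed in valine. The set held 9 genes, S100a8, S100a9, Retnlg, Pglyrp1, Camp, Ngp, Ltf, Lcn2 and Lyz2, picked by gene symbol, and each of the 9 was found among the 10430 genes of the mouse table. They were singled out because their values were far higher on the valine-free diet than on the control diet in these same libraries, so that contrast is described here without a test. Neutrophils build their granules in waves while they mature in the marrow. Primary granules carry proteases and myeloperoxidase, and secondary and tertiary granules, filled later, carry iron-binding and antimicrobial proteins. The messages of the secondary wave are known as a mark of the myelocyte stage and of the factor C/EBP epsilon.

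The cells came from T-cell acute lymphoblastic leukaemia (T-ALL) in C57BL/6 mice, secondary recipients of tumours driven by the delta-E form of NOTCH, a truncated and constantly active receptor. Every mouse carried this tumour, and the groups were diets with 0, 0.4, 0.8 or 8 g/kg valine, the last being the control, given for 3 weeks. Leukaemic cells were then sorted from the spleen by their GFP signal, and the labels do not give age, sex, sort purity or whether a library pooled animals. Each diet had 1 library named TALL2 and 1 named TALL3. What these names mark is not stated, and neither is whether the libraries of a diet came from separate mice, so p-values measure only the spread between these libraries. The treatment protocol also speaks of valine given in g/L in drinking water, so the diets serve here only as ranked groups.

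Values were FPKM, which scale reads to gene length and library size, and whole reads were estimated from the steps between FPKM values. They summed to between 14222895 and 37687253 per library over the listed genes. Of 27 T-lineage genes 24 were present, and their summed level was 4943 and 5020 FPKM in TALL2 and TALL3 at 0 g/kg, and 4838 and 5510 FPKM at 8 g/kg. Tcf7, a T-cell transcription factor, was at 1066 and 932 FPKM at 0 g/kg, and at 1172 and 1182 FPKM at 8 g/kg. Some members were low or uneven: Cd4, a T-cell co-receptor, was at 2.90 and 87.2 FPKM at 0 g/kg, and at 4.91 and 13.5 FPKM at 8 g/kg. Rag1, which cuts antigen receptor genes in immature T cells, was at 1.75 and 14.2 FPKM at 0 g/kg, and at 11.8 and 62.6 FPKM at 8 g/kg. In bulk RNA, fewer cells of a type and less RNA per cell cannot be told apart.

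Summed over the 9 genes, reads were most frequent on the valine-free diet. At 0 g/kg the TALL2 library held 8541 such reads, or 459 in 1000000 listed reads (RPM), with a 95% exact binomial interval of 449 to 469. The TALL3 library at 0 g/kg held 3859, or 271 RPM (263 to 280). At 0.4 g/kg there were 469 reads in TALL2, 12.4 RPM (11.3 to 13.6), and 1099 in TALL3, 65.4 RPM (61.6 to 69.4). The 2 libraries at 0.4 g/kg differed by a larger ratio than those at 0 g/kg, with TALL3 the higher. At 0.8 g/kg there were 209 reads in TALL2, 13.1 RPM (11.35 to 14.95), and 192 in TALL3, 7.43 RPM (6.42 to 8.56). At 8 g/kg there were 23 reads in TALL2, 1.08 RPM (0.686 to 1.62), and 141 in TALL3, 8.77 RPM (7.38 to 10.3). The TALL3 control lay above the TALL3 library at 0.8 g/kg, with overlapping intervals. These intervals cover counting error only. The diet means were 365 ± 133 RPM at 0 g/kg, 38.9 ± 37.4 at 0.4 g/kg, 10.2 ± 3.98 at 0.8 g/kg and 4.92 ± 5.43 at 8 g/kg (SD, n = 2 each).

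**Figure D1:**
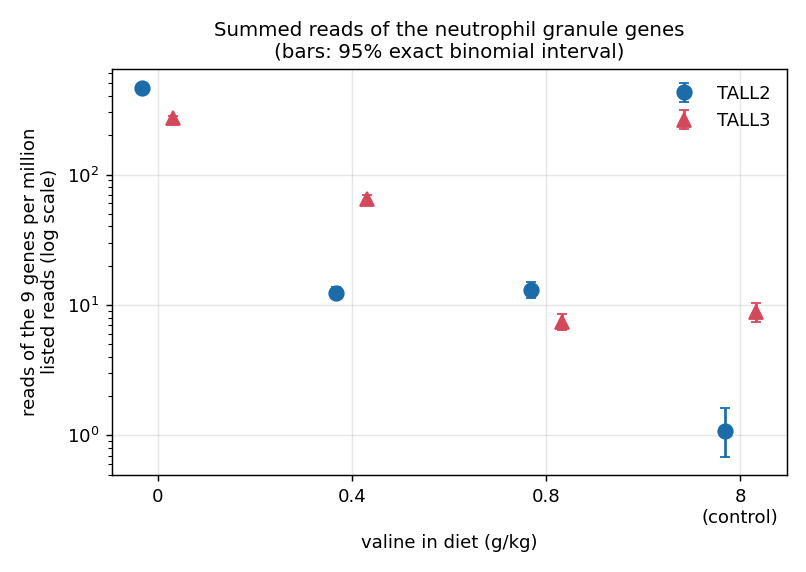
Summed reads of the 9 genes in RPM (log axis) by valine in the diet, 1 point per library with its 95% exact binomial interval. Both libraries at 0 g/kg (459 and 271 RPM) lie above the other 6, and TALL3 at 0.4 g/kg (65.4) comes next.

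By FPKM at 0 g/kg the most abundant of the set were S100a9 and S100a8, the subunits of calprotectin, a calcium- and zinc-binding protein that fills the cytosol of neutrophils and is not itself a granule protein. S100a9 was at 194 and 107 FPKM in TALL2 and TALL3 at 0 g/kg, 3.50 and 23.8 FPKM at 0.4 g/kg, 5.59 and 2.17 FPKM at 0.8 g/kg, and 0.265 and 1.51 FPKM at 8 g/kg. S100a8 was at 108 and 63.7 FPKM at 0 g/kg, 3.09 and 17.9 FPKM at 0.4 g/kg, 2.06 and 1.51 FPKM at 0.8 g/kg, and 0 and 1.94 FPKM at 8 g/kg. For both genes the lower library at 0 g/kg exceeded every library of the other diets, by 4.49 times for S100a9 and 3.55 times for S100a8. In TALL2 at 0 g/kg S100a9 ranked 212 of the 10430 genes by FPKM, and in the TALL2 control it ranked 10201. Mean FPKM of S100a9 was 169 times as high at 0 as at 8 g/kg, a ratio that rests on 16 control reads. The log2 fold change for 0 against 8 g/kg, on the log2(FPKM + 1) scale, was 6.35 (SE 0.855) for S100a9 and 5.61 (SE 0.810) for S100a8. These genes lie close together on chromosome 3 (GRCm38), S100a8 at 90668978 to 90670035 on the plus strand and S100a9 at 90692632 to 90695721 on the minus strand, 22597 bp apart.

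Secondary granule cargo had its highest values in the same 3 libraries, both at 0 g/kg and then TALL3 at 0.4 g/kg. Ngp, a cathelicidin-related granule protein, was at 99.7 and 55.1 FPKM in TALL2 and TALL3 at 0 g/kg, 2.71 and 13.6 FPKM at 0.4 g/kg, 2.67 and 1.60 FPKM at 0.8 g/kg, and 0.338 and 1.98 FPKM at 8 g/kg. Lcn2, lipocalin, which withholds iron by binding bacterial siderophores, was at 43.4 and 20.9 FPKM at 0 g/kg, 0.699 and 4.84 FPKM at 0.4 g/kg, 0.616 and 0.437 FPKM at 0.8 g/kg, and 0.0334 and 0.791 FPKM at 8 g/kg. In Ngp the 4 libraries at 0.8 and 8 g/kg overlapped, and so did they in Lcn2. Ltf, the iron-binding lactoferrin, was at 15.2 and 12.6 FPKM at 0 g/kg, 0.534 and 3.03 FPKM at 0.4 g/kg, 0.374 and 0.438 FPKM at 0.8 g/kg, and 0.0837 and 0.198 FPKM at 8 g/kg. Camp, the precursor of the antimicrobial peptide CRAMP, was at 14.95 and 11.8 FPKM at 0 g/kg, 0.600 and 2.19 FPKM at 0.4 g/kg, 0.478 and 0.0991 FPKM at 0.8 g/kg, and 0 and 0.557 FPKM at 8 g/kg. Ltf had its lowest values in the 2 controls, whereas Camp was lower in TALL3 at 0.8 g/kg than in the TALL3 control. The log2 fold changes for 0 against 8 g/kg were 5.24 (SE 0.716) for Ngp, 4.52 (SE 0.644) for Lcn2, 3.70 (SE 0.437) for Ltf and 3.52 (SE 0.405) for Camp. Camp (109847379 to 109849617), Ngp (110419747 to 110423012) and Ltf (111019271 to 111042767) all lie on chromosome 9, with 570130 bp between Camp and Ngp and 596259 bp between Ngp and Ltf.

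The remaining genes were Retnlg, Pglyrp1 and Lyz2. Retnlg, a secreted protein of the resistin family, was at 17.4 and 13.1 FPKM in TALL2 and TALL3 at 0 g/kg, 0.665 and 2.07 FPKM at 0.4 g/kg, 0.994 and 0.185 FPKM at 0.8 g/kg, and 0 and 0.0993 FPKM at 8 g/kg. The controls held 1 Retnlg read, against 319 at 0 g/kg, a ratio of 363 per listed read with a 95% counting interval of 64.6 to 14369. Pglyrp1, which binds bacterial peptidoglycan, had the lowest mean at 0 g/kg. It was at 11.04 and 6.58 FPKM at 0 g/kg, 0.510 and 1.32 FPKM at 0.4 g/kg, 0.435 and 0.487 FPKM at 0.8 g/kg, and 0.0662 and 0.435 FPKM at 8 g/kg. Lyz2, the lysozyme that neutrophils share with monocytes and macrophages, was at 26.7 and 20.9 FPKM at 0 g/kg, 1.17 and 4.79 FPKM at 0.4 g/kg, 1.74 and 0.799 FPKM at 0.8 g/kg, and 0.140 and 1.47 FPKM at 8 g/kg. Its ratio of mean FPKM between 0 and 8 g/kg, 29.6, was the smallest of the 9. Lyz2 has a close paralogue, Lyz1, which is not among the listed genes, so its reads are uncertain. The log2 fold changes were 3.94 (SE 0.386) for Retnlg, 2.95 (SE 0.337) for Pglyrp1 and 3.88 (SE 0.566) for Lyz2.

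**Figure D2:**
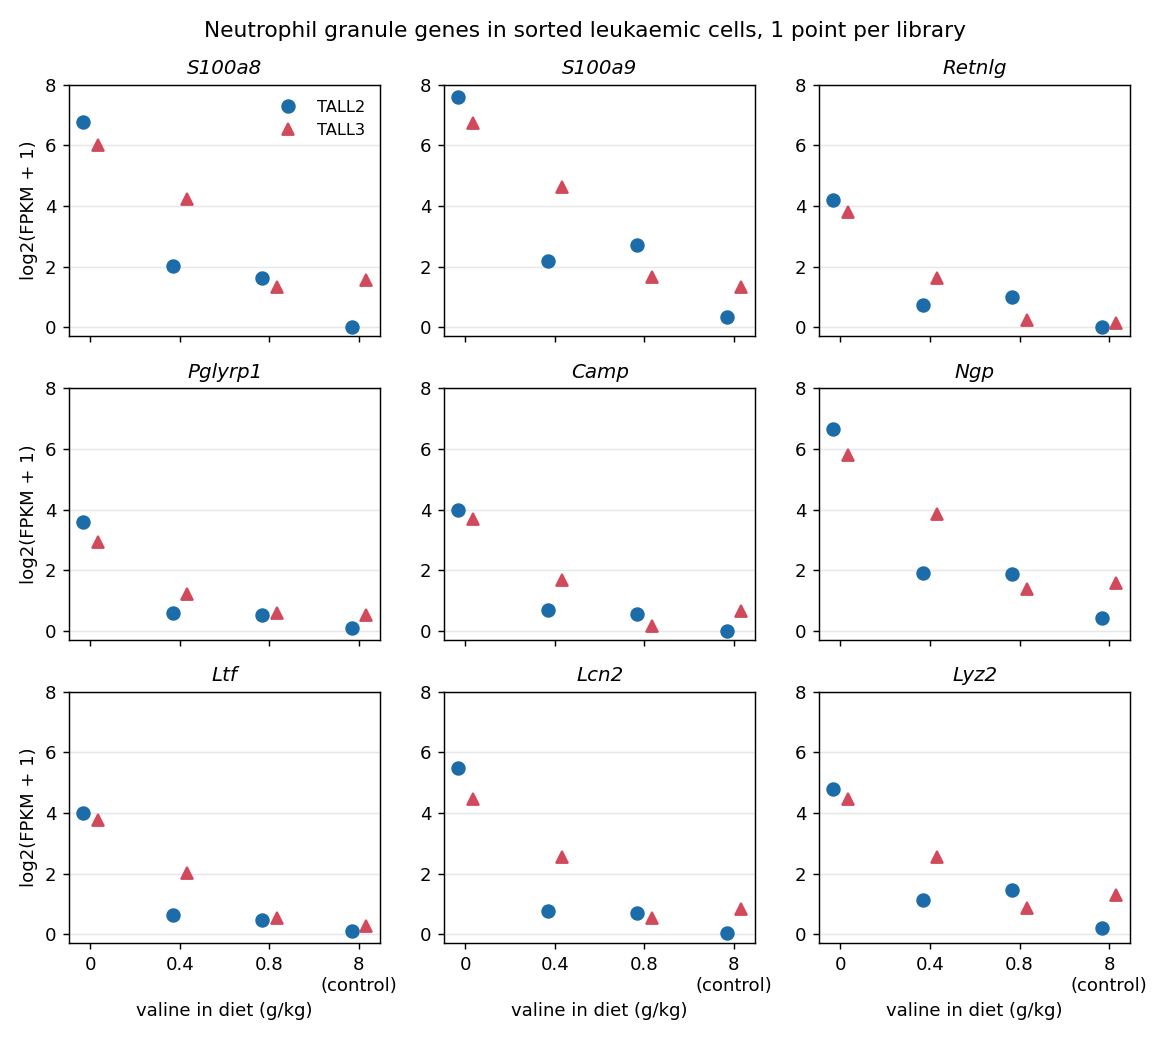
Log2(FPKM + 1) of each of the 9 genes by valine in the diet, 1 point per library, circles for TALL2 and triangles for TALL3. In each panel both libraries at 0 g/kg lie above the other 6 and TALL3 at 0.4 g/kg is the next highest.

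The start regions of these genes were read because the 9 shared a pattern across libraries. The RefSeq table held all 9, and the 250 bases before each RefSeq start (GRCm38.p6) were searched on both strands for TTGCNNAA, the core of a C/EBP site, and for GAGGAA, the core of a PU.1 site. TTGCNNAA occurred in 5 of the 9 (Lcn2, S100a9, Ngp, Ltf and Retnlg), and in 9.56% of the 32851 windows of that length in the table. GAGGAA occurred in 4 of the 9 (S100a8, Pglyrp1, Ltf and Lcn2), and in 23.3% of the windows. A match describes letters and shows no binding. The windows of a calprotectin gene and of both secondary granule genes with a match within 150 bases of the start are shown, 5′ to 3′ along the gene, with TTGCNNAA matches on either strand in capitals.
S100a9 (chr3:90695722-90695971, minus strand): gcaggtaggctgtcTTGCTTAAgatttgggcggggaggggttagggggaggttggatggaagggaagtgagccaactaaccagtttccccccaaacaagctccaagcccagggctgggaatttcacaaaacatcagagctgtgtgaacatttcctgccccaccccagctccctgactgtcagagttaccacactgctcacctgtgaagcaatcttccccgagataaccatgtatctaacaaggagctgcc
Ngp (chr9:110419558-110419807, plus strand): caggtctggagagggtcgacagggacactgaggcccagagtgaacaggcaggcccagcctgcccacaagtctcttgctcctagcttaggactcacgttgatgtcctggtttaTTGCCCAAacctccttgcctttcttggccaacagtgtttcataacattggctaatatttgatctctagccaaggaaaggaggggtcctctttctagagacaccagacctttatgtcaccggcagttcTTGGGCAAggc
Ltf (chr9:111019042-111019291, plus strand): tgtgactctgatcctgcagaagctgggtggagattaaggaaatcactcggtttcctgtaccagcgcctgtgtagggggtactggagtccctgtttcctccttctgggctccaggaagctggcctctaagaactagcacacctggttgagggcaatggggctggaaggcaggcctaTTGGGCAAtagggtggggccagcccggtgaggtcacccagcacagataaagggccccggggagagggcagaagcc
The matches begin 236 bases before the start of S100a9, 138 and 11 bases before that of Ngp and 75 bases before that of Ltf. The RefSeq start of Ngp lies 61 bases inside the GENCODE gene model and that of Ltf 21 bases inside it, so the nearer Ngp match lies within that model. This distance was larger in Lcn2, which had both cores, at 513 bases. It was also larger in S100a8, at 93 bases, and in Pglyrp1, at 13359, which had GAGGAA but no TTGCNNAA. The windows of Lcn2 and Pglyrp1 thus lie wholly inside their GENCODE models.

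Among the 9943 genes tested, whose FPKM averaged 1 or more across libraries, limma called 0 genes for 0 against 8 g/kg at an adjusted p of 0.05 (0% of those tested, with 1025 at an unadjusted p under 0.05, 10.3%). A limma-voom fit on the estimated reads also called 0 genes in this and the next contrasts, with 924, 1046 and 424 at an unadjusted p under 0.05 for 0, 0.4 and 0.8 against 8 g/kg. These counts describe the whole table, and no p is given for the 9 genes in this contrast. The 9 met the limit of 1 FPKM, but only 5 of them (S100a8, S100a9, Ngp, Lcn2 and Lyz2) would have met it without the valine-free libraries, so a high value there let in Retnlg, Pglyrp1, Camp and Ltf. In 9 of 9 both libraries at 0 g/kg lay above both controls, against 19.1% of all tested genes, a count that the choice of the genes fixed. Their median log2 fold change was 3.94, against -0.01 over all tested genes. Ranked by that change, S100a9, S100a8 and Ngp held ranks 1, 2 and 3 of all tested genes, and all 9 were among the first 20. The genes were chosen for high values in this contrast, so this median and these ranks follow from the choice and are a description.

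The diets with some valine were compared with the same controls, and so share them with the contrast above. Genes chosen for low values in these controls are favoured to lie above them, and 4 of the 9 met the limit on FPKM only through the valine-free libraries, so the counts of members are a description. At 0.4 g/kg both libraries lay above both controls in 7 of the 9 genes, the exceptions being Lcn2 and Lyz2, against 16.9% of all tested genes. The log2 fold changes ran from 0.60 (SE 0.337) for Pglyrp1 to 2.57 (SE 0.855) for S100a9, with a median of 1.13 against -0.05 over all tested genes. In limma with Benjamini-Hochberg adjustment over all tested genes 0 of the 9 passed, with adjusted p from 0.418 to 0.580, and 0 of 9943 genes were called (0%, with 1059 at an unadjusted p under 0.05, 10.7%). Much of this rested on 1 library. The TALL3 library at 0.4 g/kg exceeded its TALL2 counterpart by 2.59 times in Pglyrp1 to 6.92 times in Lcn2. Without it the median was 0.43, and without the TALL2 library it was 1.82.

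The diet with 0.8 g/kg gave the smallest differences from the controls. Both libraries lay above both controls in 4 of the 9 (S100a9, Retnlg, Pglyrp1 and Ltf), against 10.6% of all tested genes, and in Pglyrp1 the margin was in the fourth decimal of FPKM. The log2 fold changes ran from 0.03 (SE 0.405) for Camp to 1.36 (SE 0.855) for S100a9, with a median of 0.41 against -0.04 over all tested genes. In limma the adjusted p was 0.998 for each of the 9, and 0 of 9943 genes were called (0%, with 433 at an unadjusted p under 0.05, 4.35%). Libraries of the 2 names differed in direction. Against the TALL2 control, TALL2 at 0.8 g/kg was higher in 9 of 9 genes, and against the TALL3 control, TALL3 at 0.8 g/kg was higher in 4 and lower in 5. The median was 0.03 without the TALL2 control, 0.62 without the TALL3 control, 0.27 without TALL2 at 0.8 g/kg and 0.71 without TALL3 at 0.8 g/kg.

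The make-up of the signal was alike in the libraries that held most of it. Of the summed FPKM of the 9 genes, S100a9 gave 36.6% and 34.4% in TALL2 and TALL3 at 0 g/kg and 32.4% in TALL3 at 0.4 g/kg. In the same 3 libraries S100a8 gave 20.4%, 20.4% and 24.4%, and Ngp gave 18.8%, 17.7% and 18.4%. The 2 controls differed from this and from each other. In the TALL2 control S100a8, Camp and Retnlg were at 0 and Ngp gave 36.5%, from 23 reads over the set. In the TALL3 control, with 141 reads, S100a9 gave 16.8% and Lyz2 16.4%, against 5.04% and 6.69% for Lyz2 in TALL2 and TALL3 at 0 g/kg.

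**Figure D3:**
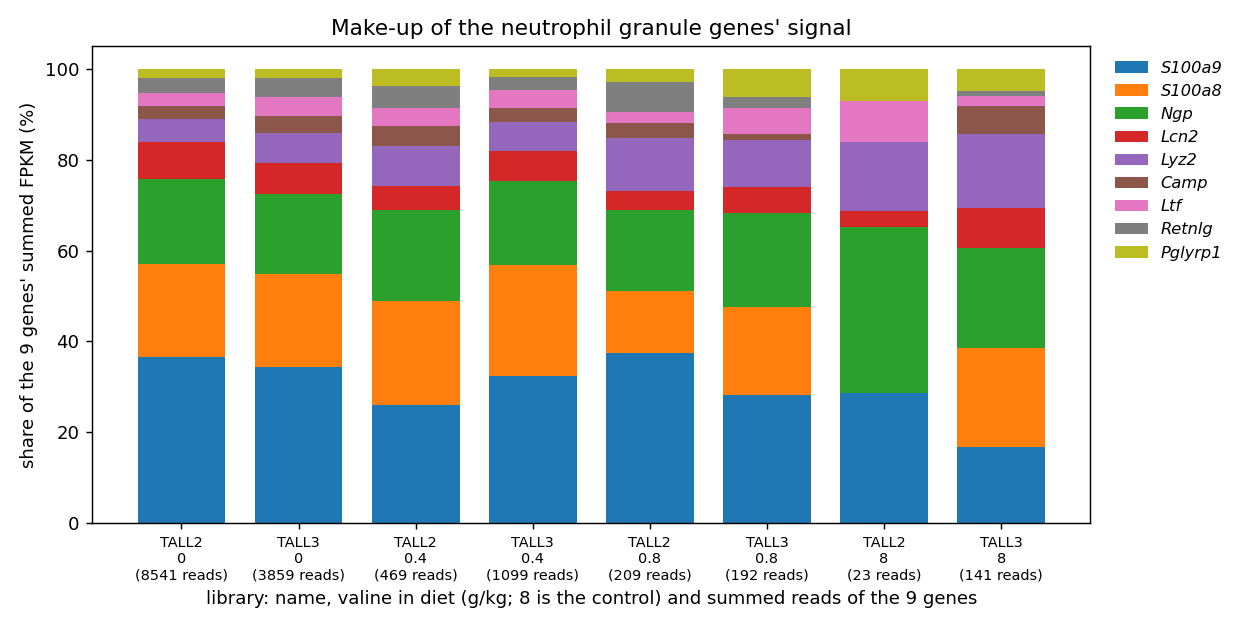
Share of the summed FPKM of the 9 genes taken by each gene, 1 bar per library, with the reads behind each bar under it. S100a9, S100a8 and Ngp make up most of each bar at 0 g/kg, and the TALL2 control rests on 23 reads.

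Other neutrophil genes were taken from lists written for this cell type. Of 21 further granule and secreted genes 13 were in the table and 10 were tested, of which 9 had both libraries at 0 g/kg above both controls, against 19.1% of all tested genes (median log2 fold change 2.47). Mmp8, Cd177, Hp, Slpi, Stfa2l1 and Serpinb1a met the limit on FPKM only through the valine-free libraries. The count and median of this list are therefore a description. Anxa1, Chil3 and Mmp9 had the highest mean FPKM of that list. Chil3, a chitinase-like protein, was at 69.8 and 24.1 FPKM in TALL2 and TALL3 at 0 g/kg, and at 0.298 and 0.353 FPKM at 8 g/kg. Mmp9, the gelatinase of tertiary granules, was at 4.12 and 26.7 FPKM at 0 g/kg, and at 0.159 and 1.98 FPKM at 8 g/kg. Its order between the 2 libraries at 0 g/kg was opposite to that of the 9 genes. Anxa1, an annexin, was at 15.4 and 9.91 FPKM at 0 g/kg, and at 0.411 and 1.33 FPKM at 8 g/kg. In limma 0 genes of these lists passed in any of the 3 contrasts.

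The list written for primary granules held genes of both kinds, with and without such a difference. Of 9 genes 8 were tested, and 4 of these had both libraries at 0 g/kg above both controls, against 19.1% of all tested genes (list median 1.39). These 4, chosen after their values were seen, were the proteases Elane, Prtn3 and Ctsg and the peroxidase Mpo. They met the limit on FPKM only through the valine-free libraries, which favours such a difference, so the count and median are a description. Mpo was at 25.5 and 10.3 FPKM in TALL2 and TALL3 at 0 g/kg, and at 0.0167 and 0.944 FPKM at 8 g/kg. Elane was at 24.2 and 7.80 FPKM at 0 g/kg, and at 0 and 0.245 FPKM at 8 g/kg. In these 4 the TALL2 library at 0 g/kg exceeded the TALL3 library by 2.35 to 3.13 times, and in the 9 genes by 1.20 to 2.08 times. This difference in ratio was not tested, and Gstm1 of the same list had a ratio of 3.05 in favour of TALL2. High ratios were not particular to primary granule genes. In the list of other granule genes they ran from 0.155 in Mmp9 to 2.90 in Chil3, with a median of 1.59. The other 4 had log2 fold changes between -0.35 and 0.20. Among them Srgn, the granule proteoglycan, was at 184 and 235 FPKM at 0 g/kg, and at 235 and 171 FPKM at 8 g/kg. Gstm1 was at 21.1 and 6.92 FPKM at 0 g/kg and at 17.5 and 9.46 FPKM at 8 g/kg. The protease Ctsc was at 15.2 and 25.5 FPKM at 0 g/kg and at 14.5 and 19.9 FPKM at 8 g/kg. Another protease, Prss57, had the lowest log2 fold change of the list, -0.35. It was at 11.7 and 5.09 FPKM at 0 g/kg and at 10.3 and 10.05 FPKM at 8 g/kg. The proteases of this list thus did not all differ in the same way.

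**Figure D4:**
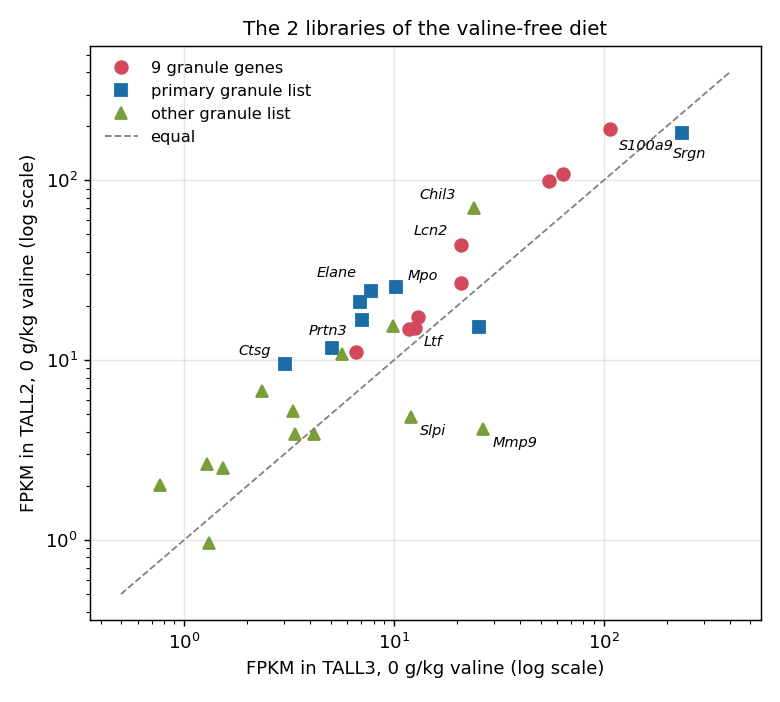
FPKM in TALL2 against TALL3 at 0 g/kg valine, both axes log, for the 9 genes and the other granule lists, with the line of equal values. The 9 genes lie above the line by 1.20 to 2.08 times, and Elane, Mpo, Prtn3 and Ctsg by 2.35 to 3.13 times. Chil3 of the other granule list lies above it by 2.90 times, and Mmp9, Slpi and Srgn are among those below it.

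Receptors, factors and enzymes of neutrophils were mostly low in the table or shared with T cells. Of 24 receptor and adhesion genes 11 were in the table and 5 were tested, with a median of 0.30 for 0 against 8 g/kg. Cxcr4, a chemokine receptor, and Itgb2, an integrin chain, are also made by T cells and had log2 fold changes of 0.30 and 0.52. Csf3r, the receptor of the granulocyte growth factor G-CSF, was below the filter and was at 2.78 and 2.66 FPKM at 0 g/kg, and at 0.0528 and 0.121 FPKM at 8 g/kg. Of 10 transcription factors 5 were in the table and 4 were tested (median 0.95). Of these Fos, an immediate-early factor, was at 58.8 and 61.3 FPKM at 0 g/kg, and at 17.3 and 6.61 FPKM at 8 g/kg. Gfi1, which T-lineage cells also use, was at 22.5 and 20.4 FPKM at 0 g/kg, and at 20.1 and 26.6 FPKM at 8 g/kg. Spi1, the gene of PU.1, was below the filter and was at 3.51 and 1.70 FPKM at 0 g/kg, and at 0.181 and 0.475 FPKM at 8 g/kg. Cebpe, the gene of C/EBP epsilon, was not among the factors in the table. In the NADPH oxidase list 5 of 6 genes were tested (median 1.10), and in 4 of them both libraries at 0 g/kg lay above both controls, again against 19.1%. Cybb, its catalytic subunit, was at 4.41 and 3.38 FPKM at 0 g/kg, and at 0.0966 and 0.381 FPKM at 8 g/kg. Its log2 fold change, 1.98, was the largest of the list, and the other tested genes ran from 0.16 to 1.20. Cybb and Ncf1 met the limit on FPKM only through the valine-free libraries. Csf3r, Gfi1, Spi1, Cybb and Ncf1 were named after their values were seen.

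Markers of other cells also differed between these libraries, and their part in the values of the 9 genes was not tested. The summed level of 15 listed erythroid genes was 10.8 and 13.8 FPKM in TALL2 and TALL3 at 0 g/kg, 68.0 and 52.4 FPKM at 0.4 g/kg, 45.0 and 40.3 FPKM at 0.8 g/kg, and 106 and 301 FPKM at 8 g/kg. The globin genes Hbb-bs, Hbb-bt and Hba-a1 were at 0 in TALL2 at 0 g/kg, and in 7 of 10 tested erythroid genes both libraries at 0 g/kg lay below both controls, against 22.9% of all tested genes. The order of TALL2 and TALL3 was the same for the erythroid sum and the sum of the 9 genes at 0.8 and 8 g/kg. It was opposite at 0 and 0.4 g/kg. The summed level of 11 monocyte and macrophage genes was 31.3 and 62.3 FPKM at 0 g/kg, and 30.9 and 42.5 FPKM at 8 g/kg. In that list 1 of 8 tested genes had both libraries at 0 g/kg above both controls, no more than the 19.1% of all tested genes (median 0.19). The summed level of 7 B-cell and MHC class II genes was 60.3 and 159 FPKM at 0 g/kg, and 16.9 and 32.7 FPKM at 8 g/kg, with TALL3 the higher at 0 g/kg, unlike the 9 genes. The T-lineage list had a median of 0.00. Of the remaining lists, 3 of 6 tested genes of inflammatory neutrophil products had both libraries at 0 g/kg above both controls. So had 1 of 4 tested NK-cell genes (median 0.62), close to the 19.1% of all tested genes. Of the inflammatory products, Ifitm1 and Ifitm6 met the limit on FPKM only through the valine-free libraries.

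**Figure D5:**
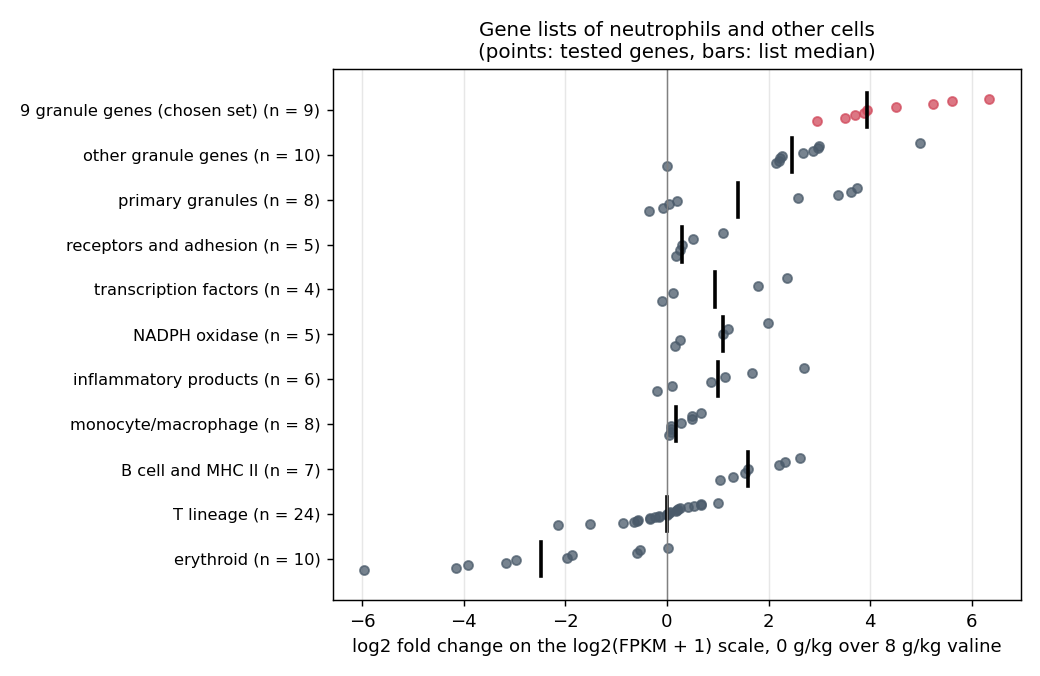
Log2 fold change on the log2(FPKM + 1) scale, 0 over 8 g/kg valine, of the tested genes of each list (points) with the list median (bar). The 9 chosen genes have a median of 3.94, other granule genes 2.47, the primary granule list 1.39, T-lineage genes 0.00 and erythroid genes -2.48. Several granule genes met the limit on FPKM only through the valine-free libraries.

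Of 7922 other genes averaging 5 FPKM or more, Chil3 had the pattern most like that of the 9 over the 8 libraries, with a Pearson correlation of 0.986 with the mean of their standardised log2(FPKM + 1). Next came Gadd45a (0.983), a stress-induced growth arrest gene, at 9.69 and 8.71 FPKM in TALL2 and TALL3 at 0 g/kg and at 5.59 and 5.63 FPKM at 8 g/kg. Then came Cfap43 (0.967), Kptn (0.944), Lin9 (0.942) and Rhot2 (0.938), whose FPKM differed far less between diets. Rhot2, a mitochondrial GTPase, was at 12.5 and 12.7 FPKM at 0 g/kg and at 11.02 and 11.7 FPKM at 8 g/kg. The limit of 5 FPKM left out granule genes such as Mpo, Elane and Prtn3, so their patterns were not ranked here. Of the 9 genes themselves only 5 met it. All libraries here share the diet order, and these correlations are given as a description.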

How the data were processed

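RNA of 8 libraries of sorted mouse leukaemic cells was analysed, and 4 libraries of a human cell line were not used here. RNeasy columns and a strand-specific library kit were used, per the labels. Among tools, the submitters name STAR and edgeR, with the build mm10, but give neither version nor role. The authors deposited FPKM for each gene and library, and the gene lengths and divisor behind them were not stated. Of the genes, 318 had no symbol, and 10427 identifiers matched the GENCODE annotation.

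Reads were estimated as the smallest whole numbers in the ratios of FPKM values (relative tolerance 1e-09), with gene lengths whole within 0.01 bp, for which the reads of 13 genes were multiplied. Tests used limma 3.58.1 (R 4.3.3) on log2(FPKM + 1), fitted to the 4 diets together with a variance trend, two-sided, for genes averaging 1 FPKM or more, and p was adjusted by Benjamini-Hochberg over all of them (threshold 0.05). The members and lists were chosen with earlier results of these data known. Named genes were the 9 members, up to 3 genes of each list with the highest mean FPKM, and the 6 genes of most similar pattern. A gene that this rule names is not reported here. Genes named outside it were chosen after their values were seen. The read estimate and the limma fit were tested on simulated data. Coordinates are from GENCODE M21 (GRCm38) and promoter windows from RefSeq (GRCm38.p6). Libraries of the same diet differed beyond counting noise (chi-square per degree of freedom from 38.6 to 93.6). Alternatives were other pseudocounts, filters and scalings, a fit with no trend, a replicate block, fits of single contrasts and leaving out each library. A limma-voom fit on the estimated reads was chosen after seeing the data.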

Additional observations from a re-analysis of the deposited data

How the results depend on the processing

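The number of called genes stayed at 0 in each of the 3 contrasts under each of the 18 alternatives, the replicate block included, where limma again called 0 genes (1230, 1266 and 542 at an unadjusted p under 0.05 for 0, 0.4 and 0.8 against 8 g/kg). The labels do not say whether libraries of the same name are paired across diets. The differences between TALL2 and TALL3 correlated across genes at 0.74 between 0.8 and 8 g/kg and at 0.57 between 0 and 8 g/kg. Between 0 and 0.4 g/kg the correlation was 0.43, and between 0 and 0.8 g/kg 0.36. It was 0.06 between 0.4 and 8 g/kg and -0.17 between 0.4 and 0.8 g/kg. The log2 fold changes of the 9 genes stayed positive at 0 and 0.4 against 8 g/kg in 158 of 158 refits each. Settings that changed only the filter, variance trend, block or libraries of other diets left each gene's fold change as it was. The choice of the genes also fixed the sign at 0 g/kg, so these counts are a description. At 0.8 against 8 g/kg 153 of 158 were positive. The 5 others were without the TALL2 control, S100a8 (-0.085, range over left-out libraries -0.085 to 1.47), Camp (-0.29), Lcn2 (-0.23, range -0.23 to 0.56) and Lyz2 (-0.15, range -0.15 to 0.96), and without TALL2 at 0.8 g/kg, Camp (-0.18, range -0.29 to 0.35). The median over the 9 genes depended on the pseudocount because most control values lie under 1 FPKM. For 0 against 8 g/kg it was 6.28 with a pseudocount of 0.1, 2.31 with 5, and 6.71 with voom on the estimated reads. It was 5.24 when only genes averaging 5 FPKM or more were kept, 5 of the 9. For 0.4 against 8 g/kg it was 2.59 with a pseudocount of 0.1, 0.43 with 5 and 2.87 with voom, and for 0.8 against 8 g/kg it was 1.11, 0.12 and 1.55. With a library left out the medians ran from 3.75 to 4.43, 0.43 to 1.82 and 0.03 to 0.71 for 0, 0.4 and 0.8 against 8 g/kg. The controls hold 1 to 49 reads per gene over both libraries, which limits every ratio to them.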

Other observations

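Basophil and mast cell protease genes were also found in the valine-free libraries. Of 17 eosinophil, basophil and mast cell genes 3 were in the table, and only 1, Cpa3, met the filter. Mcpt8, a basophil protease, was at 2.60 and 3.56 FPKM in TALL2 and TALL3 at 0 g/kg (42 and 43 reads). It was at 0 and 0.685 FPKM at 0.4 g/kg, and was listed at 0 in both controls. Prss34, another basophil protease, was at 3.66 and 3.47 FPKM at 0 g/kg (86 and 61 reads). It was at 0 and 0.424 FPKM at 0.4 g/kg, and at 0 and 0.0993 FPKM at 8 g/kg. Cpa3, a mast cell and basophil carboxypeptidase, was at 1.39 and 9.78 FPKM at 0 g/kg, and at 0.349 and 4.04 FPKM at 8 g/kg, so TALL3 was the higher in both diets.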
